A study of Mus musculus with 6 samples.

Results

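The genes described are 8 members of the pathway that makes steroids from cholesterol: Cyp11a1, Star, Fdx1, Fdxr, Tspo, Stard3, Hsd3b1 and Hsd11b1. They were selected on a measured value of these data, the rise of Cyp11a1 when group 2 innate lymphoid cells (ILC2) were cultured, and were matched by symbol to the 37991 Ensembl genes counted. Messenger RNA was sequenced from ILC2, the innate lymphocytes that make type 2 cytokines, sorted as lineage-negative cells with Thy1 and the IL-33 receptor chain ST2. The 3 groups have 2 libraries each, from about 300000 cells per sample. The first is mesenteric lymph node (MLN) cells kept in culture for 1 week with 3 cytokines, IL-33, IL-25 and IL-7, each at 10 ng/ml. The others are cells taken directly from the thymus and cells taken directly from MLN. All mice were homozygous for a transgene (Id1tg/tg) for Id1 driven by the proximal lck promoter. Id1 blocks E proteins, a family of transcription factors that bind DNA as dimers. That promoter is active in thymocytes, the mice lack T cell development, and the strain was made on FVB/N and then crossed to C57BL/J for 10 or more generations. No group lacks the transgene, so the data do not show what it changes. The labels used here give no age. Nothing in them states that duplicate libraries are from different mice or cultures, so the p values reflect the spread between libraries, which may be technical.

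Steroid synthesis starts when cholesterol reaches the inner mitochondrial membrane. There the P450 enzyme encoded by Cyp11a1 cuts off the side chain and releases pregnenolone, using electrons that ferredoxin reductase (Fdxr) takes from NADPH and ferredoxin (Fdx1) carries to the P450. Delivery of cholesterol to the enzyme involves STAR and is rate-limiting in adrenal and gonad, and the enzymes of the Hsd3b family then turn pregnenolone into progesterone. The pathway is best known from adrenal cortex, gonads and placenta. In mice it is also known from activated type 2 helper T cells, which express Cyp11a1 and make pregnenolone.

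Library totals lay between 35280692 and 40578264 counts. Levels are given as CPM, counts relative to library totals scaled with TMM factors. Of the 8 members 7 passed the filter on low counts, and Hsd3b1 had no counts. ILC2 and sort markers were all present, with 10 of 10 genes above 1 CPM in every group. Their summed level was 15198 to 15481 CPM in cultured MLN, 8336 to 8461 in thymus and 10530 to 10548 in fresh MLN. The genes of this list did not all go the same way. Thy1 was at 113 CPM in cultured MLN, 731 in thymus and 335 in fresh MLN. Il7r was at 851, 1429 and 2280 CPM in the same order, and Il1rl1, the gene of ST2, at 2314, 1450 and 1851 CPM. Adjusted p values come from the quasi-likelihood test of edgeR across all 16231 genes tested, and a gene is called below 0.05. These are bulk samples, so a change in the number of expressing cells and a change in RNA per cell cannot be told apart.

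Mouse Cyp11a1 has 2 annotated starts in the RefSeq promoter table (GRCm38.p6, chromosome 9, plus strand), and both windows are shown because this gene had the largest difference among the members. Each window runs from 250 bases before to 50 after the start, and the deposited counts are per gene, so they do not separate the 2 starts. The upstream window lies at chr9:57997774-57998073 and the downstream one at chr9:58014702-58015001. Capitals mark matches, on either strand, to TCAAGG (the start of many binding sites of SF-1, the Nr5a1 product), to TATAA and to CANNTG, the E-box that E proteins bind.
Cyp11a1 upstream start: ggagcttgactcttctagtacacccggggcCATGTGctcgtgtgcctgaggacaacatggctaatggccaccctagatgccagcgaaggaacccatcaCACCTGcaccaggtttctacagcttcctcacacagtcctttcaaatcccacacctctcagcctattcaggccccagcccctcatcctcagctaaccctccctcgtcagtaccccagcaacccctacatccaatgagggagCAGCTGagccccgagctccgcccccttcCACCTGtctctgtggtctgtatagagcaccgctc
Cyp11a1 downstream start: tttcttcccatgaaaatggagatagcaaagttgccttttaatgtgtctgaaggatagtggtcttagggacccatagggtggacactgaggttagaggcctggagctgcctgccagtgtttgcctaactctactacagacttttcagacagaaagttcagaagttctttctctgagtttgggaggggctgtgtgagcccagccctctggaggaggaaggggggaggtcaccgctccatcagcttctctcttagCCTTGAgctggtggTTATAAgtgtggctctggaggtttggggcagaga
The upstream window held 4 E-boxes and no match to TCAAGG or TATAA. The downstream window held no E-box, and it held TCAAGG on the minus strand from 2 bases after the start and TATAA on the plus strand from 17 bases after it, overlapping a minus-strand match. Over all 32851 windows of this length in the table, 72.3% held an E-box, 24.9% held TATAA and 14.4% held TCAAGG. Promoter windows were matched for 6 of the 8 members, and those of Fdx1 and Hsd3b1 held 2 matches each to TCAAGG. The motif TCAAGG was added after the windows were seen, and a match is a description of the letters only.

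Cyp11a1 encodes the side-chain cleavage enzyme. It stood at 2134 and 2252 CPM in the cultured MLN libraries, at 1.01 and 0.877 CPM in thymus and at 0.668 and 0.637 CPM in fresh MLN. The cultured libraries are far above all others, and no pair of groups overlaps. As raw reads these were 70761 and 81726 counts in cultured MLN, 41 and 33 in thymus, and 26 and 24 in fresh MLN. The mean of 2193 ± 83.4 CPM in cultured MLN was 3361 times the 0.653 ± 0.0218 CPM of fresh MLN (SD, n = 2 each). This rise chose the members, so it is given as a description with no test. In the GENCODE M21 gene models Cyp11a1 shares 145 exonic bases on the same strand with Gm17322, a lincRNA gene that was not counted. Reads from those bases could come from either gene.

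In the cultured libraries Cyp11a1 ranked 37th and 36th of all genes by counts. It took 0.191% of all counts in the first library (95% exact binomial interval 0.190 to 0.192) and 0.201% in the second (0.200 to 0.203), intervals that cover counting error only. In fresh MLN it ranked 13092nd and 13198th. The thymus mean was 1.45 times that of fresh MLN, a difference that is not tested here because the fresh libraries took part in the choice of the gene.

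**Figure D1:**
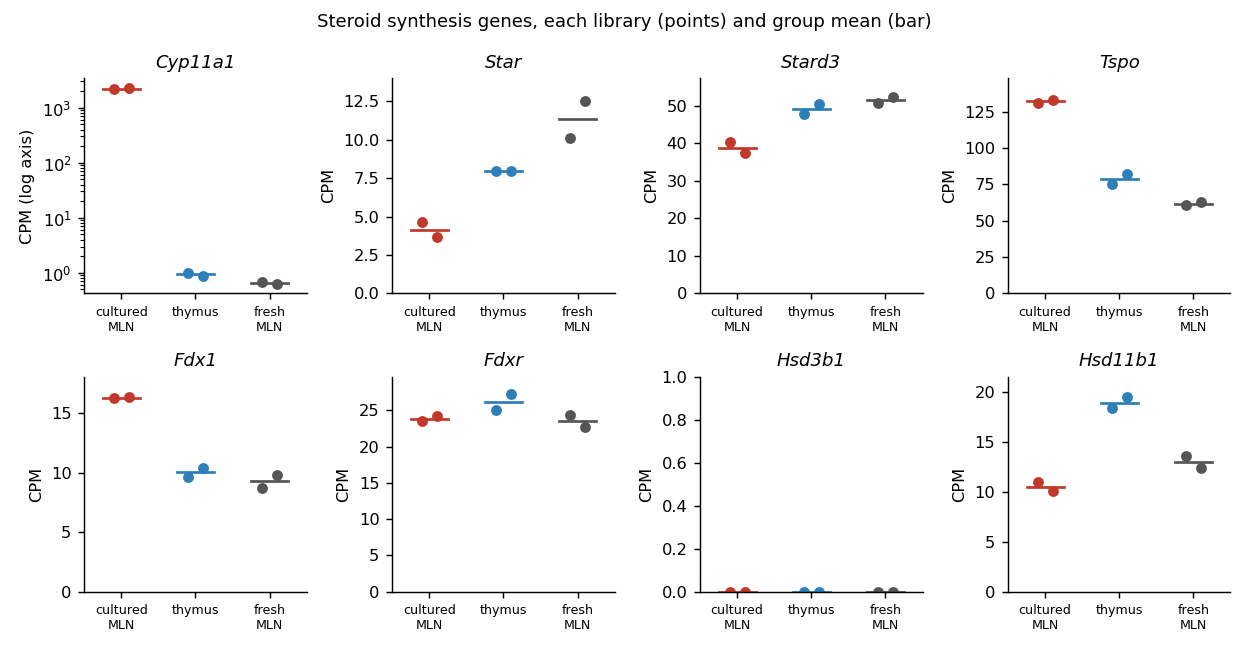
Normalised read counts (CPM) of the 8 members in each library, with points for the 2 libraries of a group and bars for group means. Cyp11a1 is on a log axis and lies at 2134 CPM or more in cultured MLN and at 1.01 CPM or less elsewhere. Star is lowest in cultured MLN, and Hsd3b1 is at 0 in every library.

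The products of 3 members handle cholesterol before the cleavage step. Star, which encodes the protein that brings cholesterol to the inner mitochondrial membrane, stood in the opposite order to Cyp11a1 across the groups. It stood at 4.61 and 3.69 CPM in cultured MLN, at 7.98 and 7.95 CPM in thymus and at 10.1 and 12.5 CPM in fresh MLN. The 3 groups do not overlap, with the lowest values in the cultured libraries, whose mean was 0.367 times that of fresh MLN. Star was lower in thymus than in fresh MLN, at a log2 fold change of -0.51 ± 0.15 (SE, edgeR adjusted p = 0.014). That call was lost without fresh MLN replicate 2, where the log2 fold change was -0.35 (adjusted p = 0.128, range over alternatives 0.0019 to 0.128).

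Stard3, which encodes a sterol transfer protein of late endosomes related to STAR, stood at 40.2 and 37.3 CPM in cultured MLN, at 47.7 and 50.3 CPM in thymus and at 50.7 and 52.3 CPM in fresh MLN. The cultured libraries were lowest, at 0.753 times the fresh mean. Thymus and fresh MLN lay next to each other and did not pass the test, with a log2 fold change of -0.07 ± 0.07 (adjusted p = 0.465).

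Tspo encodes the translocator protein of the outer mitochondrial membrane, which binds cholesterol. It stood at 131 and 133 CPM in cultured MLN, at 75.0 and 82.3 CPM in thymus and at 60.8 and 62.6 CPM in fresh MLN. The groups do not overlap, and the order is cultured MLN, thymus, fresh MLN. The cultured mean was 2.14 times the fresh mean, and thymus was higher than fresh MLN by a log2 fold change of 0.35 ± 0.07 (SE, edgeR adjusted p = 0.001). Tspo shares 53 exonic bases with Mcat on the opposite strand, and the strand setting of the counting is not given in the sources used here, so a small share of its reads is uncertain.

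The genes of the electron carriers differed far less between groups than that of the P450 they serve. Since the rise of Cyp11a1 chose the members, this contrast is partly built in and is a description only. Fdx1 stood at 16.3 and 16.3 CPM in cultured MLN, at 9.66 and 10.4 CPM in thymus and at 8.73 and 9.80 CPM in fresh MLN. Cultured libraries were highest at 1.76 times the fresh mean, while thymus and fresh MLN overlapped and did not pass the test (log2 fold change 0.11 ± 0.11, adjusted p = 0.456). Fdxr stood at 23.6 and 24.2 CPM in cultured MLN, at 25.1 and 27.2 CPM in thymus and at 24.4 and 22.7 CPM in fresh MLN. Cultured and fresh MLN overlapped for Fdxr, at a ratio of means of 1.02, and thymus did not pass against fresh MLN (log2 fold change 0.15 ± 0.09, adjusted p = 0.160).

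Levels between genes were compared per kilobase of exon, with exon lengths from GENCODE M21, a later annotation than the one counted. On this scale Cyp11a1 was at 457 CPM per kb in cultured MLN, above Tspo at 126, Stard3 at 10.9, Fdxr at 8.51, Fdx1 at 5.25, Hsd11b1 at 2.48 and Star at 1.01. In fresh MLN the order was Tspo at 58.7 CPM per kb, Stard3 at 14.5, Fdxr at 8.38, Hsd11b1 at 3.06, Fdx1 at 2.98, Star at 2.75 and Cyp11a1 at 0.136. The neighbours Hsd11b1, Fdx1 and Star are not separated there, since their libraries overlap. Cyp11a1 thus stood last in fresh MLN and first after culture. This order and the ratios that follow are descriptions only, since the rise of Cyp11a1 chose the members. Per kilobase, Cyp11a1 had 84.8 and 89.2 times the level of Fdx1 in the cultured libraries, 0.0676 and 0.0547 times in thymus, and 0.0494 and 0.0420 times in fresh MLN. Against Star the ratio was 396 and 522 in cultured MLN, 0.108 and 0.0945 in thymus, and 0.0565 and 0.0436 in fresh MLN.

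**Figure D2:**
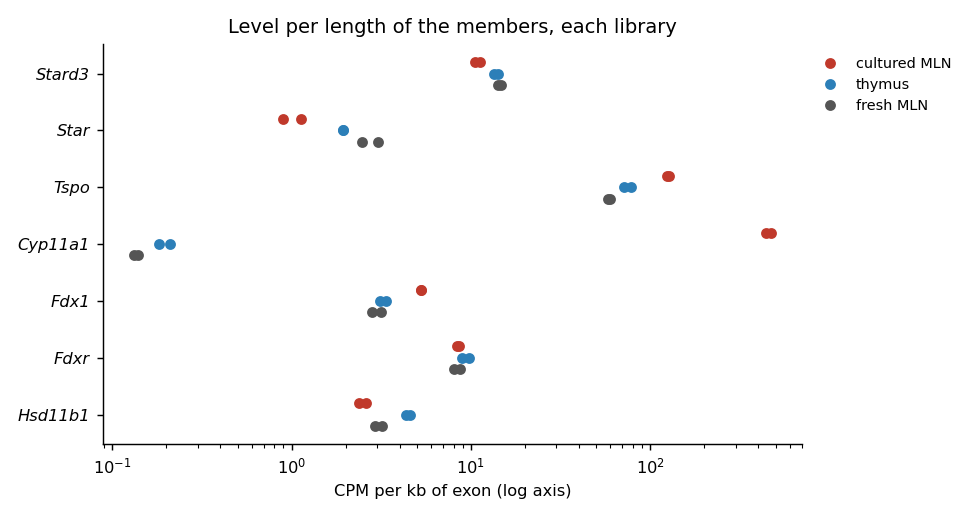
Level per kilobase of exon (CPM per kb, log axis) of the 7 members with counts, with a point per library and groups by colour. Cyp11a1 lies at 444 and 469 CPM per kb in cultured MLN, while Star, next in relative change, has group means from 1.01 to 2.75 CPM per kb.

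Hsd3b1 encodes an enzyme of adrenal and gonad that turns pregnenolone into progesterone. It had 0 counts in all 6 libraries, which allows at most 0.0739 to 0.0905 CPM per library at 3 counts. The other genes of its family that were matched, Hsd3b2, Hsd3b3, Hsd3b5 and Hsd3b6, were also at 0 in every library. Members of this family are near-identical copies, so reads that fit several of them may not have been counted.

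Hsd11b1 encodes the enzyme that regenerates active glucocorticoid from its inert form inside cells. It stood at 11.0 and 10.1 CPM in cultured MLN, at 18.4 and 19.5 CPM in thymus and at 13.6 and 12.4 CPM in fresh MLN. Thymus libraries were highest and cultured ones lowest, and no groups overlapped. Thymus was higher than fresh MLN by a log2 fold change of 0.54 ± 0.10 (SE, edgeR adjusted p = 0.00089), and the cultured mean was 0.81 times the fresh mean. Its partner H6pd, which supplies NADPH to it in the endoplasmic reticulum, was at 96.8 CPM in cultured MLN, 73.6 in thymus and 67.7 in fresh MLN.

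Of the 6 members other than Cyp11a1 that were tested between thymus and fresh MLN, 2 were higher, 1 was lower and 3 did not pass. Over all genes tested in that comparison 47.3% were called, 25.3% higher and 22.0% lower, so 3 of 6 is near the background. Between cultured and fresh MLN, 3 members lay above without overlap, namely Cyp11a1, Tspo and Fdx1, and 3 lay below, namely Star, Stard3 and Hsd11b1. In that comparison the groups did not overlap for 89.2% of all genes tested. Between thymus and fresh MLN 6 of the 7 members did not overlap, all but Fdx1, against 72.8% of all genes. Between cultured MLN and thymus all 7 members with counts were free of overlap, against 86.0% of all genes. Cyp11a1, Fdx1 and Tspo lay above thymus, at 2324, 1.63 and 1.68 times its mean, and Star, Fdxr, Stard3 and Hsd11b1 lay below, at 0.521, 0.912, 0.790 and 0.556 times. The scale of the cultured libraries depends on the normalisation, since library totals alone moved the log2 fold change of the median gene by -0.22 against fresh MLN and by -0.26 against thymus. Against thymus this changed the split of calls to 4254 higher and 7881 lower, from 5654 higher and 6139 lower with TMM factors. Against fresh MLN it turned the balance to 5382 higher and 7498 lower, where TMM factors gave 6403 higher and 6189 lower. Between thymus and fresh MLN RLE factors gave 3849 higher and 3896 lower, where TMM factors gave 4105 higher and 3572 lower. Between cultured and fresh MLN, totals alone put the log2 fold change of Fdxr at -0.20 in place of 0.02. The other members with counts kept their direction there.

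Defining genes of adrenal cortex and gonad were mostly at or near 0. Of the 10 marker genes of adrenal cortex, Leydig and ovarian cells, Nr5a1, the master factor of steroidogenic tissue, was at 0 in all 6 libraries, as were Cyp11b2, Cyp19a1 and Lhcgr. Cyp17a1, which opens the route to androgens and cortisol, had 4 and 7 counts in cultured MLN, 8 and 3 in thymus and 5 and 4 in fresh MLN. Cyp21a1 and Cyp11b1, of corticosterone synthesis, had at most 2 counts in any library. The summed level of the list was 18.9 to 20.5 CPM in cultured MLN, 4.48 to 4.71 in thymus and 8.71 to 10.0 in fresh MLN, most of it from Insl3, a Leydig cell hormone, and in cultured cells also Inha. Inha, the inhibin alpha chain, was at 9.80 and 8.74 CPM in cultured MLN with no counts in the other groups. The part of these genes in the result was not tested.

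Markers of other cell types were measured beside Cyp11a1. T cell genes summed to 55.4 to 63.8 CPM in cultured MLN, 112 to 113 in thymus and 135 to 137 in fresh MLN, mostly Cd3e, and all 9 had a count in each group. In the cultured libraries Cd4 was at 0.66 CPM, Trac at 0.388 and Cd3d at 0.426. Of the 9 genes 2 had a mean of 1 CPM or more there, 6 in thymus and 4 in fresh MLN. These low values thus do not stand for the whole T cell list. Mast cell and basophil genes summed to 937 to 1175 CPM in cultured MLN, 819 to 835 in thymus and 341 to 384 in fresh MLN. In cultured cells Mcpt8, a basophil protease, was at 727 CPM, while Ms4a2 was at 0 and Fcer1a at 0.0276, genes of chains of the IgE receptor. Cpa3, the mast cell carboxypeptidase, was at 0.1 CPM there, 119 in thymus and 26.1 in fresh MLN. Mcpt8 was at 0.243 CPM in thymus and 0.209 in fresh MLN. Most of the summed level in those 2 groups thus came from list genes other than Cpa3 and Mcpt8. In each group 3 of the 9 genes had a mean of 1 CPM or more, so the low values named do not stand for the whole list. The part of these genes in the rise of Cyp11a1 was not tested. Sums of the remaining marker lists rested mostly on 1 or a few genes each, which did not all go the same way. Macrophage genes summed to 20.4 to 21.5 CPM in cultured MLN, 6.13 to 9.84 in thymus and 15.1 to 25.9 in fresh MLN. Among them Cd68 was at 16.4 CPM in cultured MLN, 3.94 in thymus and 3.98 in fresh MLN, while Lyz2 was at 0.279, 1.80 and 10.8 CPM. Stromal and fat cell genes summed to 11.4 to 13.3, 54.4 to 55.5 and 44.0 to 47.0 CPM in the same order of groups, nearly all of it Pdgfrb at means of 8.42, 54.7 and 45.1 CPM. The collagen gene Col1a1 went the other way, at 1.14 CPM in cultured MLN, 0.104 in thymus and 0.131 in fresh MLN, and so did Lum, a matrix proteoglycan gene, at 2.42 CPM in cultured MLN with no counts in the other groups. Thymic epithelial genes summed to 4.98 to 7.69 CPM in cultured MLN, 2.69 to 3.64 in thymus and 1.54 to 1.98 in fresh MLN, mostly Epcam at 5.73, 2.36 and 1.75 CPM. B cell genes summed to 8.43 to 9.89, 1.01 to 1.26 and 1.85 to 2.15 CPM, and in cultured cells most of this was Cd22 at 7.43 CPM, with Ms4a1 at 0. Genes other than the most abundant of each list were chosen after their values were seen, and the part of these lists in the result was not tested.

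The 8 genes with profiles most like Cyp11a1 were Csn2, Mcpt8, Il5, Pth, Penk, Tnfrsf8, Peg10 and Il1r2. Log2 CPM was taken here with a prior count of 2, on which the likeness of genes near 0 counts depends. Likeness was the root mean square difference of centred log2 CPM over the 6 libraries. It was taken over 10415 protein-coding genes of at least 5 CPM in their highest group. It lay between 0.20 for Csn2, a milk casein gene, and 0.37 for Il1r2, a decoy receptor of IL-1, against a median of 5.36 for all genes compared. Il5, the eosinophil growth factor, stood at 8984 and 7737 CPM in cultured MLN, at 2.59 and 3.22 in thymus and at 2.52 and 2.68 in fresh MLN. Tnfrsf8, which encodes CD30, stood at 1231 and 1251 CPM in cultured MLN, at 0.37 and 0.532 in thymus and at 0.591 and 0.292 in fresh MLN. Pth, parathyroid hormone, had 1 count over the fresh libraries and a counting ratio of 11155 (95% interval 2002 to 440654).

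Other genes of the pathway were taken from lists written with earlier results of these data known. Of 27 matched genes for enzymes after pregnenolone and their electron donors, 10 passed the filter and 8 had no count in any library. Medians leave out genes at or under 3 counts in both groups. Between cultured and fresh MLN 7 of the 10 rose, none fell and 3 did not pass, beside 77.6% called over all genes, 39.4% higher and 38.1% lower, and nothing is read from this or the later counts in that comparison because it chose the members. The median log2 fold change of the 10 was 0.99, and -0.01 over all genes tested. Between cultured MLN and thymus 8 were higher, 1 was lower and 1 did not pass. Over all genes 72.7% were called in that comparison, 34.8% higher and 37.8% lower. Akr1c18, 1 of the 8, and Hsd17b1, the lower gene, passed the filter through the group where each is high. Nothing is read from this count either, since it shares the cultured libraries with the comparison that chose the members. Srd5a1, a reductase of progesterone and other steroids, stood at 28.6 and 22.7 CPM in cultured MLN, at 1.70 and 1.41 in thymus and at 1.39 and 1.14 in fresh MLN. Hsd17b7, which acts on estrone and in cholesterol synthesis, stood at 58.3 and 66.7 CPM in cultured MLN, at 6.87 and 5.05 in thymus and at 6.70 and 5.34 in fresh MLN. The cultured libraries were highest for both genes. Between thymus and fresh MLN neither was called, with adjusted p = 0.972 for Hsd17b7, where they overlapped, and 0.316 for Srd5a1.

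Akr1c18, which encodes the enzyme that inactivates progesterone, was chosen after its values were seen. It stood at 2.93 and 4.08 CPM in cultured MLN with 0 counts in thymus and in fresh MLN, so that it was at least 90.1-fold higher than in fresh MLN (3 counts over the group as the floor). Cyb5a, cytochrome b5, was at 240 CPM in cultured MLN, 38.0 in thymus and 28.8 in fresh MLN, and it was higher in thymus than in fresh MLN by 0.40 ± 0.07 (SE, adjusted p = 0.00068). Por, the reductase that feeds microsomal P450s, was at 172, 72.5 and 62.7 CPM in the same order. Its call in thymus against fresh MLN (0.21 ± 0.08, adjusted p = 0.044) was lost in 9 of 13 alternatives, whose adjusted p ran from 0.0036 to 0.355. In thymus against fresh MLN, 3 of the 10 genes were higher, namely Cyb5a, Por and Hsd17b1, and none was lower. Hsd17b1, a dehydrogenase of estrogen synthesis, had 2 and 2 counts in cultured MLN, 15 and 12 in thymus and 4 and 1 in fresh MLN, so it passed the filter through the group where it is high and its call adds nothing to the count. Without it 2 of 9 genes were called, beside 47.3% called over all genes. Akr1c18 is among these 9, and with 0 counts in both groups it could not be called. Nothing is therefore read from this share. The count of 3 went to 1 without fresh MLN replicate 2, without thymus replicate 2, with a filter at 5 CPM and with DESeq2.

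**Figure D3:**
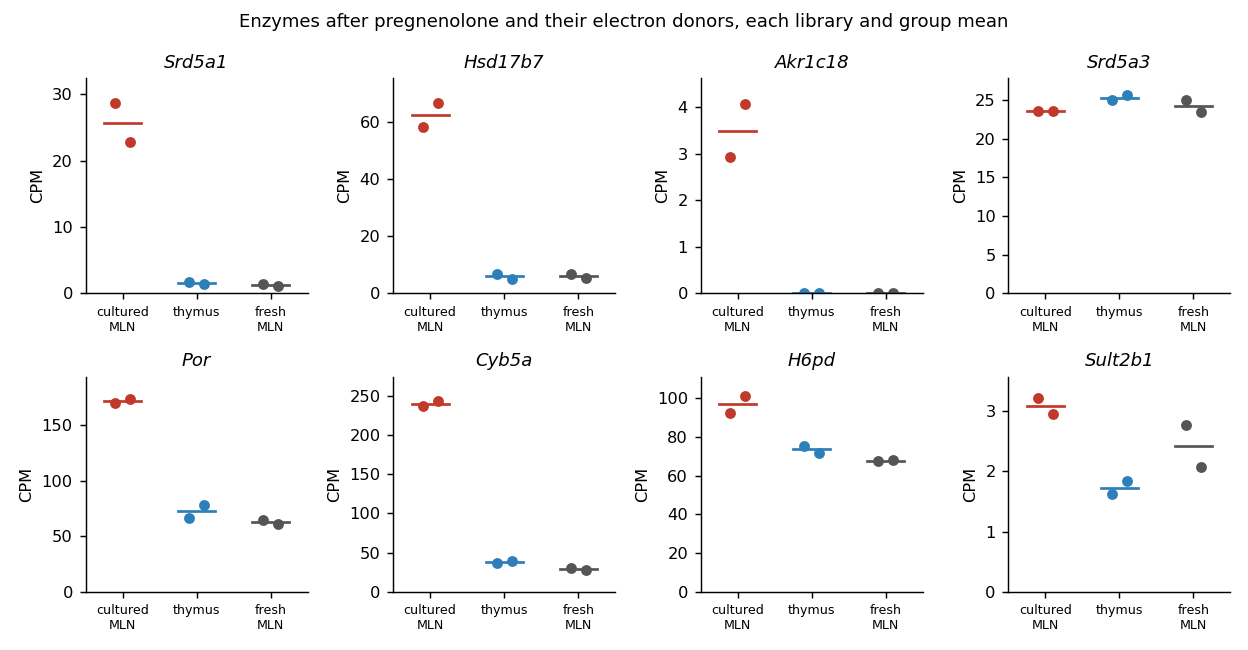
Normalised read counts (CPM, axes from 0) of 8 enzymes after pregnenolone and their electron donors, with points for libraries and bars for group means. Srd5a1, Hsd17b7, Cyb5a and Akr1c18 stand highest in cultured MLN, while Srd5a3 is between 23.6 and 25.3 CPM on average in all 3 groups.

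Of 22 genes for uptake, storage and transfer of cholesterol, 14 rose, 5 fell and 3 did not pass between cultured and fresh MLN, with a median log2 fold change of 0.84. Without cultured MLN replicate 1 or fresh MLN replicate 1, 3 fell in place of 5. Lrp1, a lipoprotein receptor, was at 52.0 CPM in cultured MLN, 4.80 in thymus and 0.871 in fresh MLN, and Vldlr at 13.0 CPM after culture was at least 332-fold above fresh MLN, which had no counts. Between thymus and fresh MLN 7 were higher, 7 lower and 8 did not pass, beside 47.3% called over all genes. Vldlr is among these 8, with 2 and 0 counts in thymus and none in fresh MLN. It passed the filter through the cultured libraries, where it is high, so nothing is read from it here. Lrp1 was higher in thymus at a log2 fold change of 2.45 ± 0.19 (SE, edgeR adjusted p = 3.0e-07). The oxysterol-binding gene Osbpl1a was higher there at 2.18 ± 0.20 (adjusted p = 1.7e-06) and Scarb1, the HDL receptor, at 0.99 ± 0.10 (adjusted p = 3.6e-06).

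Of 14 tested genes for partners of TSPO and STAR at mitochondria, 11 rose, 2 fell and 1 did not pass between cultured and fresh MLN, with a median of 0.67. Without cultured MLN replicate 1 or fresh MLN replicate 1, 1 fell in place of 2. In thymus against fresh MLN 7 were higher, 1 was lower and 6 did not pass, with a median of 0.11, and none was lower without fresh MLN replicate 1. Over all genes 25.3% were higher and 22.0% lower in that comparison. Dbi, which encodes a peptide ligand of TSPO, was at 101 CPM in cultured MLN, 45.1 in thymus and 14.4 in fresh MLN, and thymus exceeded fresh MLN by 1.65 ± 0.10 (SE, adjusted p = 1.9e-08). Akap1, an anchor of protein kinase A on mitochondria, was at 29.4, 10.1 and 3.67 CPM in the same order, with a log2 fold change of 1.45 ± 0.13 in thymus against fresh MLN (SE, adjusted p = 1.5e-06). Vdac1, the outer membrane channel, was at 148, 134 and 68.3 CPM, with 0.97 ± 0.07 in thymus (SE, adjusted p = 9.3e-08). Slc25a4, an ADP/ATP carrier, was at 273, 92.1 and 51.3 CPM.

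Ferredoxin also needs an iron-sulfur cluster. Of 12 tested genes for other mitochondrial P450s and for cluster assembly, 5 rose, 4 fell and 3 did not pass between cultured and fresh MLN, with a median of 0.04. In thymus against fresh MLN 4 were higher, 2 lower and 6 did not pass, beside 47.3% called over all genes, and 1 was lower without thymus replicate 1. Iscu, the scaffold of cluster assembly, was at 16.4 CPM in cultured MLN, 20.2 in thymus and 26.7 in fresh MLN. It was lower in thymus by -0.41 ± 0.10 (SE, adjusted p = 0.0051), a call lost without thymus replicate 1 (adjusted p = 0.0608, range over alternatives 0.00043 to 0.0608). Glrx5, a glutaredoxin of cluster transfer, was at 37.7, 32.2 and 23.8 CPM in the same order, and Lyrm4, a partner of the sulfur donor, at 5.74, 8.82 and 10.0 CPM.

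Among transcription factors known from steroidogenic promoters, Nr5a1 was at 0, and Gata4 and Gata6 had at most 4 counts in any library. Of 11 tested genes 4 rose, 6 fell and 1 did not pass between cultured and fresh MLN, with a median of -0.67. Gata3, the GATA factor of ILC2, was at 1048 CPM in cultured MLN, 660 in thymus and 610 in fresh MLN. Crem, a cAMP-responsive factor, was at 185, 101 and 21.3 CPM in the same order, and exceeded fresh MLN in thymus by 2.26 ± 0.10 (SE, adjusted p = 7.6e-10). Rora, a factor ILC2 need, was at 146, 717 and 610 CPM. The orphan receptor gene Nr4a2 was at 0.967, 5.63 and 1.45 CPM, higher in thymus than in fresh MLN by 1.95 ± 0.25 (SE, adjusted p = 3.1e-05). Its relative Nr4a3 was also higher in thymus, by 1.07 ± 0.16 (SE, adjusted p = 0.0001). In that comparison 3 of the 11 were higher, 1 was lower and 7 did not pass, beside 47.3% called over all genes.

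The hormones that drive steroid synthesis in adrenal and gonad act through cAMP. Their receptor genes Lhcgr and Fshr were at 0 in all libraries, and Mc2r, the ACTH receptor, had 2 counts in 1 library. Of 16 tested genes for receptors and cAMP signalling 8 rose, 7 fell and 1 did not pass between cultured and fresh MLN, with a median of 0.29. Pde7a, a cAMP phosphodiesterase, was at 44.9 CPM in cultured MLN, 453 in thymus and 726 in fresh MLN, and Pde8a, another, at 51.1, 7.63 and 14.6 CPM. Adcy6, an adenylyl cyclase, was at 6.50, 145 and 71.0 CPM. Between thymus and fresh MLN 6 were higher and 7 lower, among them Prkar2b, a regulatory subunit of protein kinase A, at 1.64 ± 0.14 (SE, adjusted p = 1.0e-06) and Adcy9, another cyclase, at -1.19 ± 0.19 (adjusted p = 0.0002). The other 3 of the 16 did not pass, and over all genes 25.3% were higher and 22.0% lower. Prkar1b is among these 3, with 5 and 8 counts in thymus and 2 and 5 in fresh MLN. It passed the filter through the cultured libraries, where it is high, so nothing is read from it here.

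Receptors for steroids were measured with textbook targets of the glucocorticoid receptor. Nr3c1, which encodes that receptor, stood at 1096 and 1052 CPM in cultured MLN, at 442 and 414 in thymus and at 367 and 386 in fresh MLN. Cultured libraries were highest, at 2.85 times the fresh mean. The small difference between thymus and fresh MLN (0.19 ± 0.07, adjusted p = 0.047) lost its call in 8 of 13 alternatives, with adjusted p from 0.0186 to 0.189. The progesterone receptor gene Pgr was at 0 in every library.

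Of the 14 tested genes of this list 3 rose, 10 fell and 1 did not pass between cultured and fresh MLN, with a median log2 fold change of -2.05. Tsc22d3, which encodes the glucocorticoid-induced protein GILZ, stood at 56.1 and 51.4 CPM in cultured MLN, at 493 and 493 in thymus and at 490 and 525 in fresh MLN. Cultured libraries were lowest, and the thymus values lay within the range of fresh MLN, with no call between them (adjusted p = 0.653). Sgk1, a kinase induced by corticosteroids, was at 4.91 CPM in cultured MLN, 146 in thymus and 49.7 in fresh MLN, and thymus exceeded fresh MLN by 1.55 ± 0.07 (SE, adjusted p = 1.5e-09). Zbtb16, which encodes PLZF, had no counts in cultured MLN, so that it was at least 448-fold lower there than in fresh MLN, where it was at 10.3 and 28.7 CPM. Its higher level in thymus, 44.8 and 47.8 CPM (1.25 ± 0.30, adjusted p = 0.0049), was not called by DESeq2 (adjusted p = 0.191, the highest of 13 alternatives, with 3.7e-35 the lowest), and its log2 fold change was 2.16 without fresh MLN replicate 2 and 0.69 without fresh MLN replicate 1. Dusp1, a phosphatase of MAP kinases, was at 32.9 CPM in cultured MLN, 16.3 in thymus and 6.29 in fresh MLN. Chosen after their values were seen, Fkbp5 was at 159, 503 and 444 CPM, Per1 at 55.3, 185 and 245 CPM and Klf9 at 11.7, 23.5 and 44.9 CPM. Fkbp4 of the same list, also chosen so, was at 134, 195 and 146 CPM, and its cultured and fresh libraries overlapped. In thymus against fresh MLN 7 of the 14 were higher, 4 lower and 3 did not pass, beside 25.3% higher and 22.0% lower over all genes. With a filter at 5 CPM 2 were lower. Nr3c2, 1 of the 4 lower, had 15 and 8 counts in thymus and 46 and 34 in fresh MLN. It passed the filter through the group where it is high, so its call adds nothing to the count.

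**Figure D4:**
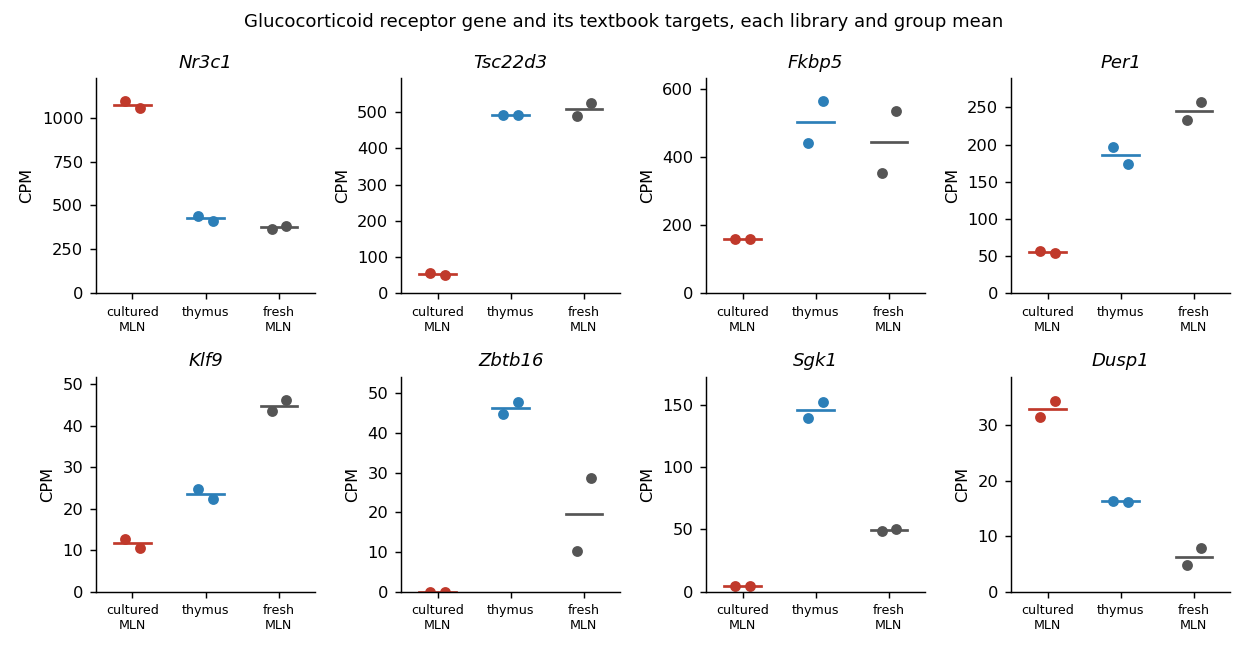
Normalised read counts (CPM, axes from 0) of the glucocorticoid receptor gene Nr3c1 and 7 textbook targets, with points for libraries and bars for group means. Nr3c1 and Dusp1 are highest in cultured MLN, and the other 6 are lowest there, with Zbtb16 at 0. Fkbp4 of the same list is not shown, and its cultured and fresh MLN libraries overlap.

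**Figure D5:**
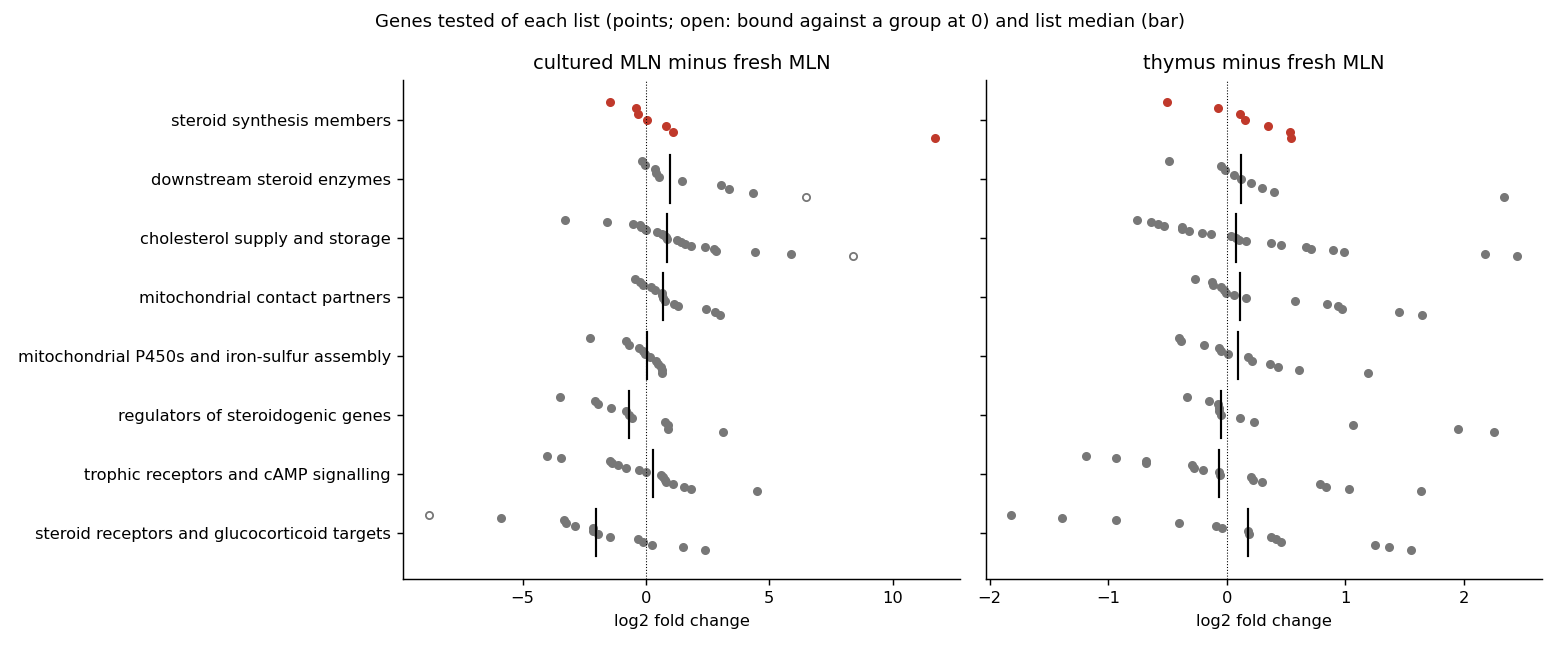
Log2 fold changes of cultured over fresh MLN (left) and thymus over fresh MLN (right) for the genes tested of each list, with the axes on different scales. Filled points are fitted values, open points are bounds against a group at 0, genes at or under 3 counts in both groups are left out, and bars are list medians, drawn for the lists other than the members. Cyp11a1 is the member at 11.71 on the left, apart from the other members between -1.45 and 1.10.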

How the data were processed

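Polyadenylated RNA was sequenced from 6 mouse ILC2 libraries with a stranded kit, per the labels. The authors deposited raw read counts per Ensembl gene for each library, with no normalization. HTSeq 0.5.3p9 and the builds mm9 and NCBIM37 are named per the submitters' processing notes. Not given in the sources used here are the aligner, the release of the annotation, and whether strand was used in counting. All 37991 entries are genes. Symbols came from GENCODE M21 by Ensembl identifier (32919 matched, 5072 did not), and its GRCm38 gene models also gave exon lengths, shared exonic bases and the order of neighbouring genes. No coordinates of it are printed, since the counts were made on another build. Fdx2 was matched by its older symbol Fdx1l, and 2 list genes, Hsd3b4 and Sts, were not matched.

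The members, lists and alternatives were chosen with earlier results of these data known. In R 4.3.3 with edgeR 4.0.16, counts were filtered with filterByExpr (16231 genes kept of 23871 with a count), scaled with TMM factors and fitted with 1 mean per group and no block. The test was two-sided, with Benjamini-Hochberg adjustment over all genes tested. Standard errors (SE) were taken from each log2 fold change and its F value. Members carry no p in comparisons with cultured cells, nor Cyp11a1 in any. Named list genes were up to 3 called genes with the largest change between thymus and fresh MLN and up to 3 with the largest between cultured and fresh MLN, at 5 CPM or more in the higher group, plus the most abundant gene of each marker list, the 8 genes most like Cyp11a1, Nr5a1, Cyp17a1, Cyp21a1, Cyp11b1, Nr3c1 and Gata3. Promoter sequences are from RefSeq on GRCm38.p6. Some list genes that the rule names are not reported here.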

Additional observations from a re-analysis of the deposited data

How the results depend on the processing

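The alternatives were RLE factors, library totals alone, no filter, at least 5 CPM in 2 libraries, DESeq2 1.42.0, a replicate block, the 2 compared groups alone, and each library left out in turn, 13 in all. Genes called in thymus against fresh MLN numbered 7677, and 6148 to 7240 with a library left out. In cultured against fresh MLN they numbered 12592, and 11598 to 12953, and in cultured MLN against thymus 11793, and 10559 to 11994. Of the 6 members tested 3 were called in thymus under every alternative but 1, the fit without fresh MLN replicate 2, where 2 were called and Star was not. Tspo and Hsd11b1 were called in 13 of 13, with adjusted p up to 0.0094 and 0.0097, and Fdx1, Fdxr and Stard3 in none of 13. Library totals alone moved 13 of the members' untested fold changes by more than the replicate spread, and the cause is the construction of that setting. Counts per list moved by over 1.5 times in 12 of 364 cases, and named list genes lost a call in 25 of 932. The labels link same-numbered libraries by a number only, and correlations of their deviations lay between 0.0211 and 0.115. With 2 libraries per group such correlations cannot show whether same-numbered libraries came from the same mice. With the replicate block 8049 genes were called in thymus against fresh MLN, 12738 in cultured against fresh MLN and 11944 in cultured MLN against thymus, and the calls of the members did not change. Depth limits Hsd3b1 and other genes near 0 counts, where only an upper limit can be given. With 1 library in a group the fit assumes that it varies like the others.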

Other observations

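The genes next to Cyp11a1 on chromosome 9 were looked at after its values were seen, as the 4 counted protein-coding genes on each side in the GENCODE M21 order. Sema7a, the nearest on the upstream side, encodes a membrane-bound semaphorin. It stood at 59.4 and 61.4 CPM in cultured MLN, at 0.591 and 0.665 in thymus and at 0.462 and 0.717 in fresh MLN, so that the cultured mean was 102 times that of fresh MLN. Ubl7, the next gene upstream, was at 165 CPM in cultured MLN, 55.9 in thymus and 52.2 in fresh MLN. Arid3b and Clk3, further upstream, were at 1.56 and 1.33 times the fresh level after culture. Ccdc33, the nearest on the downstream side, was at 0.694 and 0.579 CPM in cultured MLN, with no counts in the other groups. Stra6, Islr and Islr2, beyond it, were under 1 CPM in every library. These values are a description of neighbours in the genome and carry no test.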
